A study of Daphnia magna with 84 samples.

Results

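The gene models described here are those of the water flea Daphnia magna whose transcript level was highest at day 17 of an exposure experiment sampled on 4 days. They were chosen from the measured levels themselves. The 40 models with the largest summed counts and the 3 libraries of concentration 0 at day 24 were set aside, and the remaining counts were scaled within each library as CPM (counts per 1000000). The level was log2(CPM + 1), averaged over the animals of a day. The score of a model was its day 17 mean minus its highest mean on another day. Models with IDs beginning with APZ42, a mean of at least 5 CPM and a place outside 3 scaffolds (scaffold02581, scaffold01409 and scaffold03326) were eligible, which left 11264 of 27350. A score above 0.5 was reached by 284 eligible models, and 238 of these were left out because day 17 exceeded day 6 by less than 1 log2 unit. The remaining 46 models, 0.408% of those eligible, are the members described below, although the rule allowed up to 60. Since the day means chose them, every difference between days given here is a description with no test.

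Daphnia magna is a freshwater crustacean that reproduces mostly without mating, and an adult female repeats a cycle in which she moults, lays a clutch into the brood pouch and releases the young. Many transcripts of crustaceans are known to change over the moult cycle, and single animals taken on one day can be at different stages of it. Coal ash is the residue of coal burning and carries a mixture of metals and metalloids, mercury among them. Because neither the count table nor the reference gene table pairs these IDs with names, what the 46 models encode is not stated, and they are given by ID with their place on the contigs and scaffolds of the deposited table.

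Whole single animals were sequenced after feeding on the green alga Chlamydomonas reinhardtii, which had first been held in the coal ash mixture. The mixture was given at 1 of 6 concentrations from 0.015 to 4 nM Hg/L, with 0.06, 0.12, 0.25 and 1 nM Hg/L between them, each named by its mercury content and each standing for all constituents of the ash, and animals at concentration 0 were the controls. Animals were taken at day 6, 10, 17 or 24, with 3 animals in each of the 28 groups, 84 in all, and 81 were used here in 27 groups. The labels name no separate cultures, and no record of eggs, embryos or size of these animals was used here, so the p-values measure only the spread between these animals. In a whole animal, which can carry embryos, fewer cells of a type and less RNA per cell cannot be told apart.

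Each library held 7127253 to 27952023 counts, but the 40 models set aside took 95.4% of them. Outside those, the 81 libraries had 120113 to 1707867 counts with a median of 884716, and the medians of days 6, 10, 17 and 24 were 1095181, 900146, 702727 and 703999. In the 3 libraries left out, 11869 to 33522 counts remained and 11 or 12 of the 46 members had any count. The depth is low for these models. The median animal of day 17 had 3 to 176 counts of a member, with 13 counts for the middle member. A group of 7 libraries had under 300000 such counts. They were 2 of the animals at 4 nM Hg/L at day 6, 1 at 0.015 nM Hg/L at day 10, 1 at 0.06 nM Hg/L at day 17 and all 3 at 0.12 nM Hg/L at day 24. Of the members, 12 to 28 had a count in the 6 of these taken outside day 17. The median over all libraries of each day was 45 or 46. Some of the values that these libraries move are therefore also given without them.

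The labels hold 2 oddities that touch day 24 and day 6. The title of replicate 3 at 0.06 nM Hg/L and day 24 has a number from within the run of numbers used for 0.12 nM Hg/L. A single title number stands on replicate 1 at 0.12 nM Hg/L of day 24 and on replicate 1 of the same concentration at day 6. All were used as labelled.

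The summed level of the 46 members was highest in day 17 animals. Over the animals of a day, its lowest, median and highest values were 216, 573 and 1098 CPM at day 6, 235, 742 and 1120 CPM at day 10, 677, 1538 and 2704 CPM at day 17, and 112, 1031 and 1585 CPM at day 24. The lowest day 17 animals, at 4 and 0.06 nM Hg/L, overlapped the upper animals of every other day. The sum weights the abundant members, of which APZ42_006035 and APZ42_019400 had the highest mean levels, 133 and 105 CPM.

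**Figure D1:**
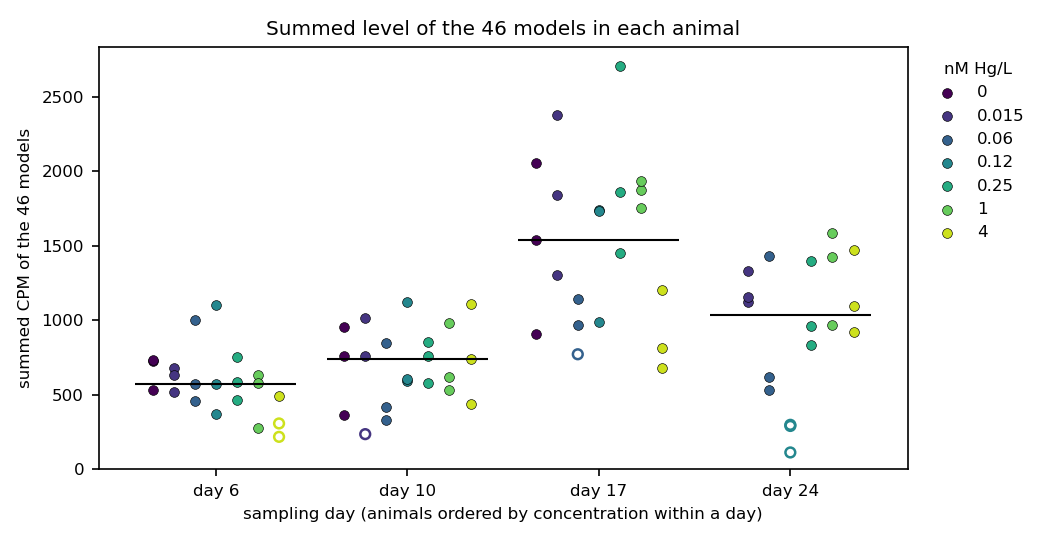
Each point is 1 animal, its height is the summed level of the 46 models in CPM, and the horizontal lines are the medians of a day. Animals are ordered and coloured by concentration within each day, and open circles are the 7 libraries with under 300000 counts. The day 17 median of 1538 CPM lies above the medians of 573, 742 and 1031 CPM at days 6, 10 and 24, and the 4 nM Hg/L animals are among the lowest of day 17.

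The score ran from 0.51 to 1.19 with a median of 0.67 log2 units. Day 17 exceeded day 6 by 1.00 to 2.43 log2 units with a median of 1.22, day 10 by 0.51 to 2.68 with a median of 0.86, and day 24 by 0.52 to 1.59 with a median of 0.76. Day 10 already lay above day 6 in 38 members and below it in 8. Day 24 lay above day 6 in 42 members, and in the median member 39.6% of the difference between days 17 and 6 was still present at day 24. The second highest day was day 24 in 27 members, day 10 in 18 and day 6 in 1. The day 24 means hold no animals at concentration 0, and they include the shallow libraries at 0.12 nM Hg/L. There the average log2 level of the members was 1.47, against 3.36 to 4.20 at the other concentrations of day 24. The differences from day 24, the share still present and the second highest days were not computed without these libraries. Among all 11264 eligible models, day 17 had the highest mean in 35.1%, and the median differences of day 17 from days 6, 10 and 24 were 0.22, 0.06 and 0.29. With library sizes scaled by the trimmed mean of M-values (TMM), those medians over all eligible models were 0.06, -0.02 and 0.13, and those of the members were 1.08, 0.78 and 0.64. Day 17 was the highest day in all 46 members under that scaling and also when CPM was taken over all counts with nothing set aside. The members had been chosen for a high day 17 in the same libraries. Under TMM scaling, day 17 was the highest day in 22.3% of eligible models. With all counts, it was the highest in 53.6% of them when 0.05 was added to CPM, and in 49.97% when 1 was added.

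APZ42_000160, on contig01238 from base 1 to 437, had the highest score, 1.19. Its lowest, median and highest animals were at 0, 15.5 and 58.1 CPM at day 6, 0, 3.84 and 36.1 CPM at day 10, 0.93, 45.3 and 127.4 CPM at day 17, and 0, 14.0 and 66.5 CPM at day 24. Its level dipped at day 10, when 4 animals had no count, and 7 of the day 17 animals lay above every animal of the other days. APZ42_006035, on contig32960 from base 1 to 676, had the same shape at a higher level. It reached 19.6, 98.5 and 254 CPM at day 6, 1.33, 42.3 and 240 CPM at day 10, 10.2, 272 and 504 CPM at day 17, and 6.98, 105.5 and 293 CPM at day 24. In this model 9 of 21 day 17 animals exceeded all others, while the lowest day 17 animal was below every day 6 animal.

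APZ42_027387, on scaffold02190 from base 1437067 to 1439751, climbed over the first 3 days. Its lowest, median and highest animals were at 0, 5.28 and 12.4 CPM at day 6, 0, 7.67 and 22.7 CPM at day 10, 3.88, 17.4 and 40.3 CPM at day 17, and 0, 9.62 and 21.5 CPM at day 24. Of its day 17 animals 7 exceeded all others. APZ42_014991, on scaffold00512 from base 848881 to 855467, reached 0, 24.5 and 44.9 CPM at day 6, 10.2, 28.6 and 58.5 CPM at day 10, 14.6, 57.1 and 102 CPM at day 17, and 0, 37.3 and 53.8 CPM at day 24, and 9 of its day 17 animals exceeded all others. The members with the second and the fourth highest score were flatter. APZ42_014409, on scaffold00405 from base 1 to 1445, had a score of 1.03 with medians of 10.0, 10.3, 19.4 and 10.99 CPM at days 6, 10, 17 and 24, and APZ42_022753, on scaffold01361 from base 1956126 to 1958569, had a score of 1.00 with medians of 8.25, 11.2, 18.5 and 10.7 CPM. For APZ42_014409 the highest of all animals was at day 10, with 29.3 CPM, so its day 17 animals did not lie apart from the rest.

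The other 6 of the 12 highest scores were between 0.74 and 0.86, apart from the 0.83 of APZ42_014991 and the 0.89 of APZ42_006035 already described. APZ42_027481, APZ42_014751 and APZ42_028704 were sparse, with day 17 medians of 8.02, 7.95 and 9.21 CPM and 4, 4 and 3 animals without a count at day 6. APZ42_000539 and APZ42_025508 had day 17 medians of 24.4 and 18.7 CPM, with 4 and 6 day 17 animals above all others. APZ42_024675 spread widely on every day, with a highest animal of 66.8 CPM at day 6 and of 91.6 CPM at day 17 around medians of 4.57 and 12.03 CPM.

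**Figure D2:**
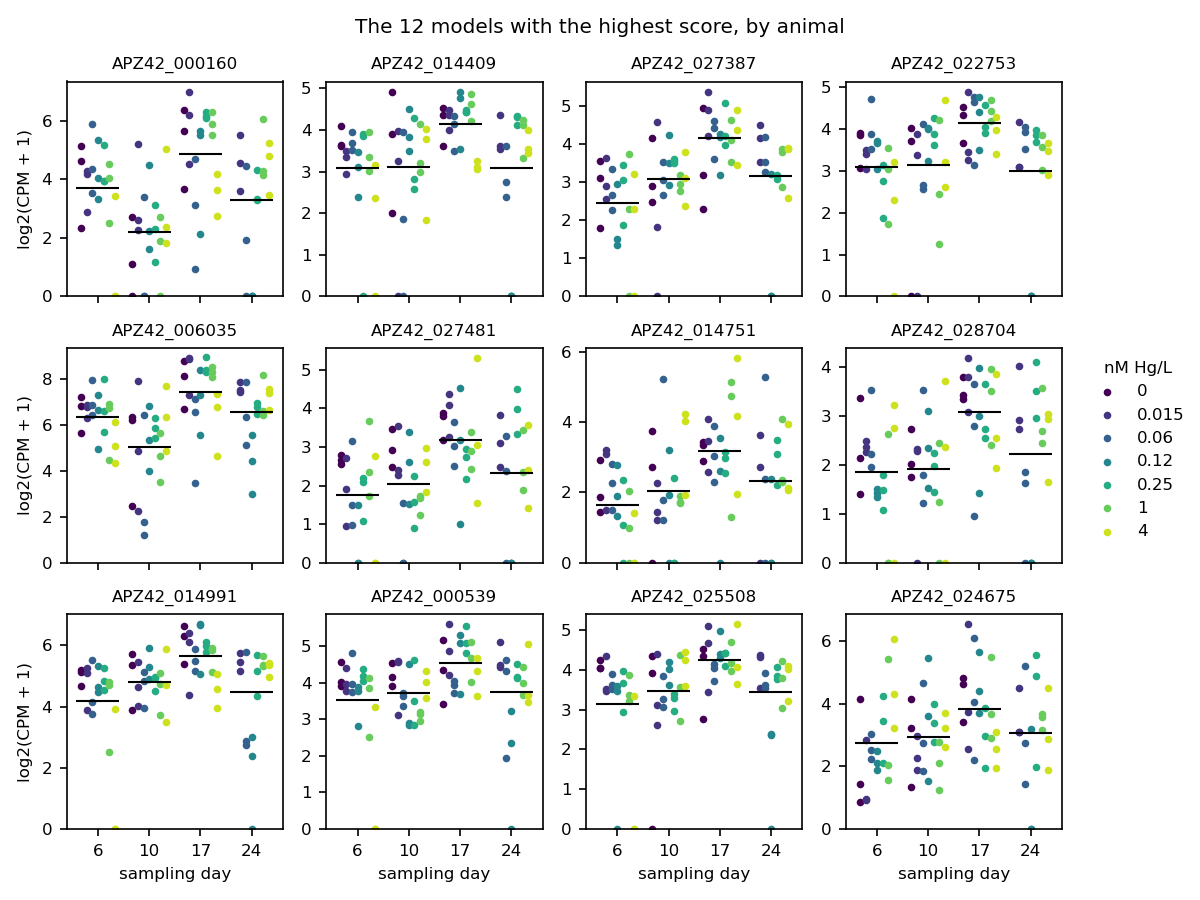
Each panel is 1 of the 12 models with the highest score, each point is 1 animal, the y axis is log2(CPM + 1), and the horizontal lines are day means. Points at 0 are animals without a count, most of which lie outside day 17, and the day 17 points overlap those of every other day in each panel.

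No member had its lowest day 17 animal above its highest day 6 animal. In 28 members the highest of all animals was taken at day 17, in 9 at day 24, in 8 at day 10 and in 1 at day 6. In 18 members no day 17 animal exceeded all animals of the other days, in 21 members 1 to 4 did, and in 7 members 6 or more did. The standard deviation between day 17 animals was 0.37 to 2.04 log2 units with a median of 0.79, near the 0.71 of all eligible models. The members were less abundant than the eligible models as a whole, with a median of the mean level of 13.4 CPM against 28.1 CPM.

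At the lower limit of the score stood APZ42_019400 with 0.54, APZ42_005245 with 0.52 and APZ42_011619 with 0.51. Just outside it were APZ42_026354 and APZ42_007383, both with 0.50, and APZ42_017458 with 0.49. The limit on the difference of day 17 from day 6 kept out models with higher scores, such as APZ42_008947 with a score of 0.98, APZ42_019744 with 0.96 and APZ42_015224 with 0.96, whose differences were 0.98, 0.99 and 0.96. APZ42_011619, on scaffold00024 from base 2587914 to 2607781, was the steadiest member. Its lowest, median and highest animals were at 7.01, 18.8 and 35.1 CPM at day 6, 10.2, 25.2 and 63.9 CPM at day 10, 22.9, 38.8 and 59.2 CPM at day 17, and 8.44, 22.1 and 45.2 CPM at day 24, so its highest animal was at day 10.

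The score depended on the shallow libraries, most of which had been taken on other days. Without the 7 libraries, day 17 was still the highest day in 45 of 46 members, the exception being APZ42_020322 with a score of -0.05. The median score was then 0.43, with a range from -0.05 to 0.89. Both limits of the rule were met by 11 members, the score limit alone by 14 and the limit on day 17 against day 6 by 29. Chosen anew from the remaining 74 libraries, the rule took 18 models, 11 of which were among the 46. APZ42_000160 kept the highest score of the members, 0.89, although its difference of day 17 from day 6 was then also 0.89 and below the limit. APZ42_015434, APZ42_023374 and APZ42_022478 had scores of 0.75, 0.77 and 0.69 without the 7 libraries, each slightly above their scores with them of 0.71, 0.74 and 0.66.

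**Figure D3:**
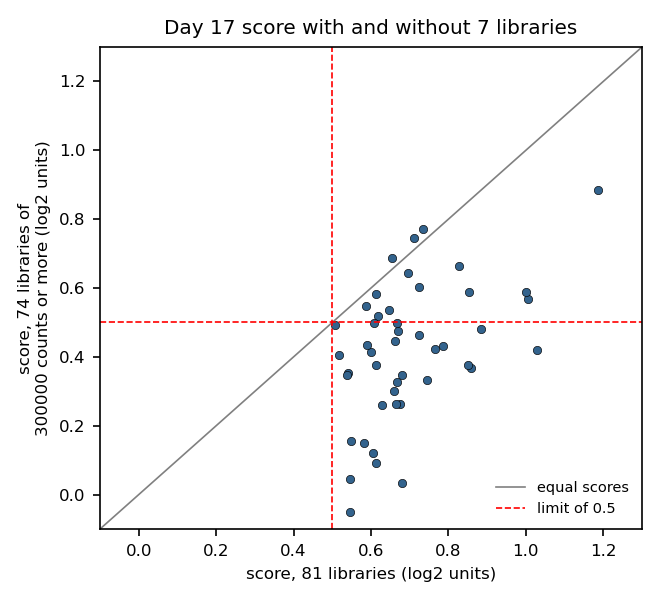
Each point is 1 of the 46 models, with the score in log2 units from all 81 libraries on the x axis and from the 74 libraries with at least 300000 counts on the y axis. The solid line marks equal scores and the dashed lines the limit of 0.5. Most points lie below the solid line, and 14 remain above the limit.

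Within single concentrations, members with their highest mean at day 17 were fewest at 4 nM Hg/L and next fewest at 0.06 nM Hg/L. The day 17 group mean was the highest in 41 of 46 members at concentration 0, where only days 6, 10 and 17 could be compared, against 35.3% of eligible models. It was the highest in 39 members at 0.015 nM Hg/L, 28 at 0.06, 40 at 0.12, 39 at 0.25, 41 at 1 and 17 at 4 nM Hg/L. The shares of eligible models were 26.4%, 24.5%, 41.8%, 28.3%, 37.8% and 25.8% at these concentrations. The rule used the same values, averaged over concentrations, so these counts are a description. At 4 nM Hg/L the average log2 level of the 46 members was 2.04, 3.36, 3.73 and 3.91 at days 6, 10, 17 and 24, and thus highest at day 24. Of the 3 day 6 animals 2 are shallow libraries, and without them the day 6 value was 3.05. At concentration 0 it was 3.33, 3.31 and 4.32 at days 6, 10 and 17. Without the 7 shallow libraries 33 members had their highest mean at day 17 at 0.015 nM Hg/L, 30 at 0.06 and 17 at 4 nM Hg/L, and the shares of eligible models there were 22.3%, 35.9% and 18.4%.

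**Figure D4:**
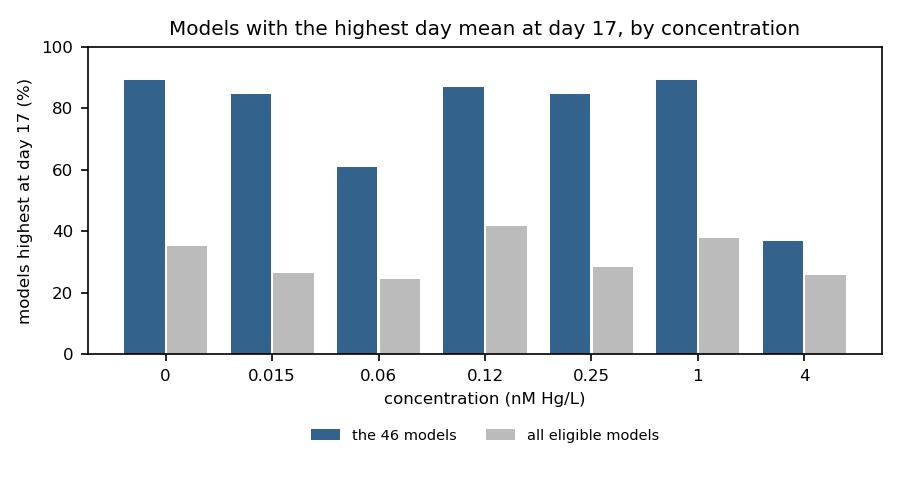
Bars give the percentage of the 46 models (dark) and of all 11264 eligible models (grey) whose day mean was highest at day 17 within each concentration, on the x axis in nM Hg/L. The members' share is lowest at 4 nM Hg/L, where 17 of 46 models had their highest mean at day 17, and next lowest at 0.06 nM Hg/L, with 28 of 46.

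The concentration contrasts within a day were not themselves used to choose the members, and they were tested. They are not fully independent of that choice, because every library entered the mean of its day. Groups that lowered the means of other days, such as those with shallow libraries, thus helped to choose members. edgeR's quasi-likelihood test was fitted to 12624 models, all 46 members among them, with p-values adjusted over all models by the Benjamini-Hochberg method. At day 17, 0 models were called at an adjusted p below 0.05 between 4 nM Hg/L and concentration 0, which is 0% of those tested and 0 of the members. At an unadjusted p below 0.05 there were 749 models, 5.93%, and 2 members, 4.35%. DESeq2 called 7 models, limma-voom 0 and the older edgeR fit 0, and none of these tools called a member. The fitted log2 changes of the members nevertheless lay mostly below 0, in 34 of 46, with a median of -0.53, while 50.8% of all models lay below 0 with a median of -0.01. The median of the members stayed between -0.72 and -0.42 when each day 17 library was left out in turn.

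APZ42_014991 had 14.6, 32.5 and 22.8 CPM in the 3 animals at 4 nM Hg/L at day 17, against 97.6, 40.8 and 78.6 CPM at concentration 0. The groups did not overlap, but the log2 change of -1.53 (SE 0.62) had an adjusted p of 0.80 in edgeR's test. APZ42_029609, on scaffold02583 from base 1 to 2205, had 14.6, 5.73 and 18.5 CPM at 4 nM Hg/L and 57.1, 21.4 and 41.7 CPM at concentration 0, again without overlap and again not called, with a log2 change of -1.51 (SE 0.65). These were the 2 members with the smallest p. APZ42_000160 had 17.1, 11.5 and 5.69 CPM at 4 nM Hg/L against 82.9, 11.7 and 49.7 CPM at concentration 0, and the lowest control animal lay between those at 4 nM Hg/L, so the groups overlapped. Its log2 change was -2.03 (SE 1.03) with an adjusted p of 0.84 in edgeR's test. APZ42_027387 went the other way, with 19.5, 28.7 and 9.96 CPM at 4 nM Hg/L against 29.5, 3.88 and 8.02 CPM at concentration 0, and the groups overlapped.

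The lower concentrations were each compared with the same 3 control animals, so these contrasts are not independent. At 0.06 nM Hg/L, 35 of 46 members lay below 0 with a median log2 change of -0.35. Of all models 47.4% lay below 0, with a median of 0.03. Here too the members share 3 animals per group and are not replicates. At 0.015, 0.12, 0.25 and 1 nM Hg/L the medians of the members were 0.35, 0.03, 0.35 and 0.28, and those of all models lay between -0.01 and 0.02. Over these 5 contrasts edgeR called 7 models, of which 5 (0.0396%) came at 0.015 nM Hg/L, and 2 (0.0158%) came at 0.12 nM Hg/L, and no member. At an unadjusted p below 0.05 it had 2 members at 0.06 nM Hg/L, APZ42_012777 with a log2 change of -3.18 (SE 1.49) and APZ42_031980 with -2.21 (SE 1.10), which is 4.35% against 5.21% of all models. It had 1 at 0.12 nM Hg/L, APZ42_023374, which is 2.17% against 4.81%. At 0.015, 0.25 and 1 nM Hg/L it had 0 members against 13.8%, 8.20% and 7.17% of all models. Over the 5 contrasts limma-voom called 1 member, APZ42_023374, and DESeq2 and the older edgeR fit 0. This model had 8.02, 41.1 and 64.6 CPM at 0.12 nM Hg/L and 3.68, 5.83 and 3.21 CPM at concentration 0, a log2 change of 3.04 (SE 1.06) with an adjusted p of 0.80 in edgeR's test.

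The other members with the smallest p in these contrasts were not called by edgeR either. APZ42_024043 had a log2 change of 1.03 (SE 0.71) at 0.12 nM Hg/L, where 1 animal had 229 CPM and the other 2 lay at 18.7 and 17.0 CPM, against 36.8, 66.03 and 17.6 CPM at concentration 0. Without that animal its log2 change was -1.22. At 0.015 nM Hg/L they were APZ42_031980, with 1.85 (SE 1.00), and APZ42_027387, with 1.13 (SE 0.69), and at 0.25 nM Hg/L APZ42_031980, with 1.97 (SE 1.00), and APZ42_002772, with 2.12 (SE 1.14). At 1 nM Hg/L they were APZ42_020464, with 1.33 (SE 0.75), and APZ42_005502, with 1.44 (SE 0.85). APZ42_005502, on contig30219 from base 4 to 636, had 23.7, 18.0 and 24.8 CPM at 1 nM Hg/L and 11.1, 7.77 and 6.41 CPM at concentration 0, and the groups did not overlap. Its adjusted p was 0.76 in edgeR's test. The control values rest on 6, 4 and 4 counts, and the correlation of this model with the log2 depth was 0.72. The libraries at 1 nM Hg/L, with 684737 to 1054285 counts, were all deeper than the controls, with 514891 to 623734. The part of depth was not tested. At 4 nM Hg/L the same model had 0, 3.82 and 1.42 CPM.

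A slope on the rank of the concentration was not called in any model at day 17 by edgeR, with 1013 models (8.02%) and 1 member (2.17%) at an unadjusted p below 0.05, while DESeq2 called 15 models and no member. The members with the smallest p were APZ42_024675, with -0.32 log2 units per rank (SE 0.14), and APZ42_014991, with -0.16 (SE 0.08). The slope averaged over days 6, 10 and 17 was called in 665 models, 5.27% of those tested, and in 0 members. An unadjusted p below 0.05 was found in 7 members, 15.2%, against 24.1% of all models. DESeq2 called 1 member and 1123 models, and limma-voom 2 members and 1183 models. Without replicate 3 at 4 nM Hg/L and day 6, edgeR called 6 of 46 members and 1228 of 13044 models. That fit left only the 2 shallow libraries in the group at 4 nM Hg/L and day 6. At day 10, edgeR called 2 of 46 members and 1065 of 13066 models without replicate 3 at concentration 0. It called 2 of 46 members and 1218 of 13040 models without replicate 3 at 0.015 nM Hg/L of that day. A single member was called without replicate 1 at 0.015 nM Hg/L at day 6. The same count of 1 was found without replicate 1 at concentration 0, replicate 1 at 4 nM Hg/L or replicate 2 at 4 nM Hg/L at day 10. Over all fits with 1 library left out, edgeR called 73 to 1228 models. APZ42_021395, on scaffold01151 from base 230741 to 241414, came nearest, with a slope of -0.13 log2 units per rank (SE 0.04) and an adjusted p of 0.053 in edgeR's test. At day 17 its 3 animals at 4 nM Hg/L had 43.9, 11.5 and 41.3 CPM, against 42.4, 58.3 and 48.1 CPM at concentration 0, so the 2 groups overlapped. APZ42_016264, on scaffold00611 from base 1 to 2455, came next, with -0.17 (SE 0.06) and an adjusted p of 0.062 in edgeR's test, and at day 17 it had 14.6, 9.55 and 11.4 CPM at 4 nM Hg/L against 14.7, 23.3 and 27.3 CPM at concentration 0. It was called without replicate 3 at 4 nM Hg/L at day 6, or without replicate 3 at 0.015 or replicate 2 at 4 nM Hg/L at day 10, with adjusted p-values of 0.038 to 0.050 in edgeR's test. Without replicate 3 at 4 nM Hg/L at day 6, neither of the animals left in that group had a count of this model. A difference of the slope at day 17 from that at days 6 and 10 was not called in any model by edgeR. At an unadjusted p below 0.05 there were 742 models, 5.88%, and 2 members, 4.35%. DESeq2 called 11 models and no member. The members with the smallest p were APZ42_024675, with a difference of -0.55 (SE 0.17), and APZ42_014751, with 0.38 (SE 0.18).

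The contrast of 4 nM Hg/L with concentration 0 was also compared between days 17 and 10, a comparison added after the values had been seen. By edgeR 0 models were called, with 947 models, 7.50%, and 1 member, 2.17%, at an unadjusted p below 0.05. DESeq2 called 10 models and limma-voom 2, none of them a member. The change at day 17 minus that at day 10 was below 0 in 34 of 46 members, with a median of -0.71. It was below 0 in 48.1% of all models, with a median of 0.04. The members share the same few animals, so this count is a description with no test. The median of the members lay between -0.94 and -0.19 when each library of days 6, 10 and 17 was left out in turn. It was -0.19 without replicate 1 at 4 nM Hg/L and -0.35 without replicate 3 at concentration 0, both of day 10. The member with the smallest p was APZ42_000160, with a difference of -4.54 log2 units (SE 1.52) and an adjusted p of 0.63 in edgeR's test. Its 3 animals at day 10 had 31.7, 2.56 and 4.15 CPM at 4 nM Hg/L and 5.62, 1.17 and 0 CPM at concentration 0, so the high value at day 10 belonged to 1 animal. APZ42_014293 came next, with -2.71 (SE 1.37). At day 17 it had 14.6, 9.55 and 75.4 CPM at 4 nM Hg/L against 36.8, 3.88 and 92.99 CPM at concentration 0, and at day 10 it had 48.8, 15.3 and 105.0 CPM at 4 nM Hg/L against 21.6, 5.27 and 7.60 CPM at concentration 0.

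A joint test asked whether a model differed among any of the concentrations within a day. At day 17 it called 894 models, 7.08% of those tested, and 1 of 46 members, 2.17%, which is below that background. limma-voom called 2942 models, 23.3%, and 15 members, 32.6%, so that the order was turned round with that tool. An unadjusted p below 0.05 was found in 6 members, 13.04%, against 23.1% of all models. The called member was APZ42_031980, on scaffold03025 from base 686514 to 691249, with an adjusted p of 0.028 in edgeR's test. Its 3 animals had 49.7, 13.6 and 25.7 CPM at concentration 0, 174.6, 114 and 20.03 CPM at 0.015 nM Hg/L, and 6.04, 10.2 and 0 CPM at 0.06 nM Hg/L. They had 28.1, 9.02 and 3.40 CPM at 0.12, 184, 10.2 and 132 CPM at 0.25, 80.9, 31.3 and 131 CPM at 1, and 92.6, 13.4 and 4.27 CPM at 4 nM Hg/L. High and low animals stood side by side in most groups, and the levels did not follow the order of the concentrations. The call ended when any of 7 of the 21 day 17 libraries was left out, namely replicate 1 at 0.015, replicates 1, 2 and 3 at 0.06, replicates 2 and 3 at 0.12 and replicate 1 at 0.25 nM Hg/L, with adjusted p-values from edgeR of 0.051 to 0.065. Without replicate 1 at concentration 0 or replicate 1 at 4 nM Hg/L, 2 members were called, 4.35% against 7.01% and 7.69% of all models. The call of APZ42_031980 also ended without the 7 shallow libraries, with an adjusted p of 0.068 in edgeR's test, and in a fit of the day 17 libraries alone, with 0.13.

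At each of the other days the joint test called 2 or 3 members. At day 6 it called 462 models, 3.66%, and 2 members, 4.35%. These were APZ42_012777 and APZ42_017534, with adjusted p-values of 0.00050 and 0.018 in edgeR's test. Both calls rested on replicate 2 at 0.12 nM Hg/L, which had 312 CPM of APZ42_012777 and 41.98 CPM of APZ42_017534, against at most 9.51 CPM and 7.30 CPM in the other 20 animals of day 6. Without that animal both adjusted p-values were 1 in edgeR's test. Then 1 other member was called, 2.17% against 2.11% of all models. APZ42_012777 lies on scaffold00181 from base 847 to 1959 and APZ42_017534 on scaffold00687 from base 1499237 to 1504447.

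At day 10 the joint test called 1163 models, 9.21%, and 3 members, 6.52%. These were APZ42_012777, APZ42_023778 and APZ42_002772, with adjusted p-values of 0.0034, 0.0061 and 0.035 in edgeR's test. All 3 were high in replicates 1 and 3 at 1 nM Hg/L. APZ42_002772 was also high in replicate 3 at 4 nM Hg/L, with 14 counts in a library of 723682. Replicate 1 at 1 nM Hg/L had 12 counts of it in a library of 735108. The 3 animals at 1 nM Hg/L had 70.7, 2.32 and 78.9 CPM of APZ42_012777, 82.98, 11.6 and 105.5 CPM of APZ42_023778, and 16.3, 2.32 and 38.9 CPM of APZ42_002772. At concentration 0 they had 2.81, 1.76 and 3.04 CPM, 22.5, 19.9 and 3.04 CPM, and 4.69, 1.17 and 1.52 CPM of the 3 models in the same order. The second animal at 1 nM Hg/L thus lay near or among the controls, and without it 6 members were called, 13.04% against 10.99% of all models. Without replicate 1 or without replicate 3 at 1 nM Hg/L none of the 3 stayed below 0.05, with adjusted p-values in edgeR's test of 0.065 and 0.051 for APZ42_012777, 0.096 and 0.11 for APZ42_023778, and 0.11 and 0.36 for APZ42_002772. The call of APZ42_002772 also ended without replicate 2 at concentration 0, replicates 1 or 2 at 0.015, replicate 2 at 0.06 or replicate 3 at 0.12 nM Hg/L, with adjusted p-values of 0.051 to 0.066 in edgeR's test.

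At day 24, where concentration 0 was left out, the joint test called 1511 models, 12% of those tested, and 2 members, 4.35%. These were APZ42_026503 and APZ42_017983, with adjusted p-values of 0.00056 and 0.032 in edgeR's test. An unadjusted p below 0.05 was found in 19 members, 41.3%, against 29.5% of all models. The 3 shallow libraries at 0.12 nM Hg/L also entered the day 24 means that chose the members. This share and the 2 calls are therefore not independent of the choice. APZ42_026503, on scaffold02076 from base 576439 to 591353, had no count in the 3 animals at 0.12 nM Hg/L and 4.22 to 30.3 CPM in the other 15. APZ42_017983, on scaffold00725 from base 467544 to 469040, had no count in the same 3 animals and 4.51 to 20.1 CPM in the others. These 3 animals are the shallow libraries of day 24, with 143349 to 242369 counts, and without any 1 of them the adjusted p of APZ42_017983 was 0.075 to 0.10 in edgeR's test. The call of APZ42_026503 held without each of them, with an adjusted p of at most 0.010 in edgeR's test over all libraries left out in turn. No fit left out only these 3 animals together. A joint test over the other 5 concentrations, added after seeing the data, left out the shallow libraries of all days. In it edgeR called 215 models, 1.57%, and 0 members, with adjusted p-values of 0.38 for APZ42_026503 and 0.48 for APZ42_017983. The lowest of the other 15 animals for APZ42_026503, at 4.22 CPM, is replicate 3 at 0.06 nM Hg/L, whose title number is odd, and without that animal both were called, with adjusted p-values of 0.00092 and 0.040 in edgeR's test. The count of members called at day 24 was 4 without replicate 2 at 0.015 nM Hg/L, 8.70% against 12.8% of all models. It was 6 members, 13.04%, without replicate 1 at 0.06 nM Hg/L, against 12.5% of all models, and without replicate 2 at 0.25 nM Hg/L, against 15.3%.

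Pairs of members were weakly correlated between single animals. Over the 21 animals of day 17, with the mean of each concentration subtracted, the median correlation of the 1035 pairs of members was 0.13, against 0.02 for eligible models. At days 6, 10 and 24 it was 0.33, 0.36 and 0.14, against 0.104, 0.07 and 0.059 for eligible models. Without the shallow libraries the members had 0.33, 0.28, 0.14 and 0.17 at days 6, 10, 17 and 24, against 0.041, 0.059, 0.007 and 0.047 for eligible models. Of the pairs, 23 reached 0.7 at day 17 and 332 were below 0. All such values come from the same libraries, whose depth differs. A correlation of at least 0.5 with the log2 depth was found in 11 of 46 members, 23.9%, against 18.7% of eligible models.

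The pair most alike at day 17 was APZ42_000160 and APZ42_006035, with r = 0.91, and r = 0.85, 0.86 and 0.56 at days 6, 10 and 24. Both have 1 exon, lie on the minus strand and begin at base 1 of a contig of their own. Their day 17 levels were lowest in the same animal, replicate 2 at 0.06 nM Hg/L, with 0.93 and 10.2 CPM, and both had fewer than 50 CPM in replicate 3 at 4 nM Hg/L, with 5.69 and 24.2 CPM. Whether the 2 models share reads could not be checked without their sequences. APZ42_027481 and APZ42_001422 were least like the rest, with median correlations with the other members of -0.21 and -0.13.

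A set of 5 members, APZ42_012777, APZ42_031980, APZ42_019400, APZ42_017534 and APZ42_002772, was picked after the values had been seen because they varied together. The median r of their 10 pairs was 0.20, 0.28, 0.70 and 0.70 at days 6, 10, 17 and 24. Without the shallow libraries it was 0.69 at day 17 and 0.75 at day 24. Animals of 1 concentration could differ widely in these models. At 0.25 nM Hg/L and day 17, the 3 animals had 185, 12.5 and 105 CPM of APZ42_012777 and 435, 44.3 and 233 CPM of APZ42_019400. The same second animal was low in both. At day 24 the 3 animals at 4 nM Hg/L had 113, 2.69 and 3.34 CPM of APZ42_012777 and 263, 134 and 90.2 CPM of APZ42_019400. The 3 animals at 0.25 nM Hg/L had 6.31, 102.7 and 7.91 CPM of APZ42_012777 and 38.8, 272 and 47.5 CPM of APZ42_019400. In both day 24 groups 1 animal stood above the other 2 for both models. The 5 models lie on 5 different scaffolds and contigs.

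**Figure D5:**
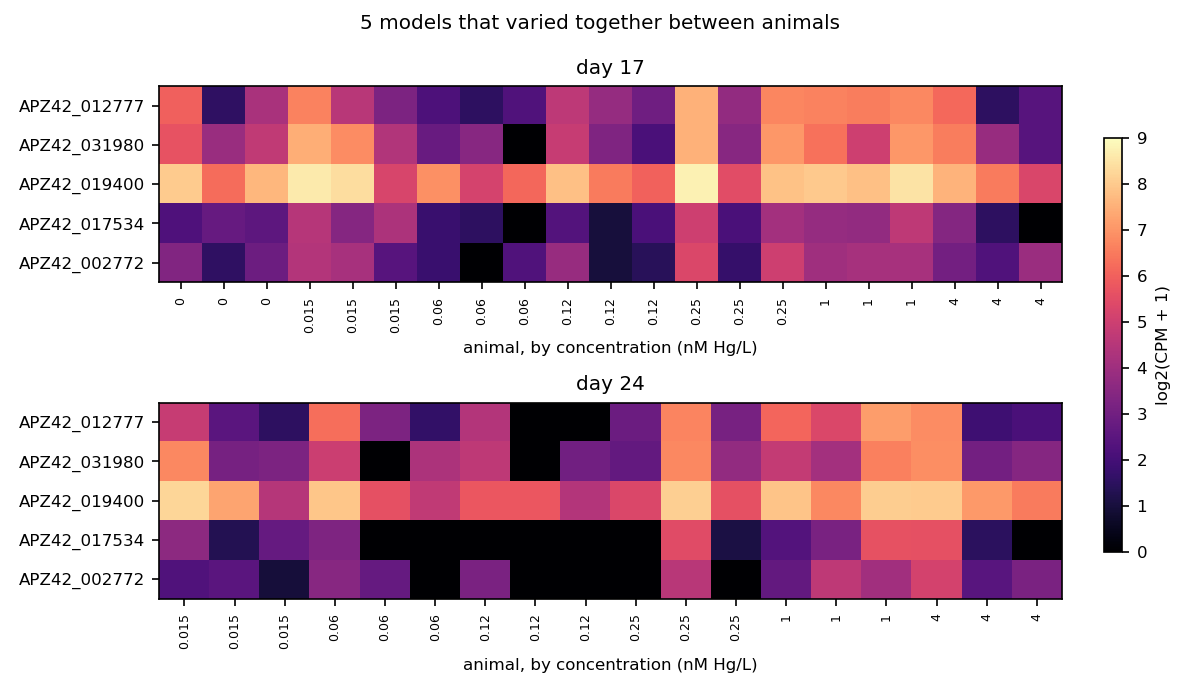
Columns are single animals of day 17 (top) and day 24 (bottom), ordered by concentration in nM Hg/L, and colours give log2(CPM + 1) of 5 models picked after their values had been seen. Light columns, such as the first animal of 0.25 nM Hg/L at day 17 and the first of 4 nM Hg/L at day 24, are animals in which all 5 models were high.

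As annotated, the members had fewer exons and more often began at the end of a sequence than eligible models did. The members were also less abundant, and these shares were not set against models of like level. They had a single exon in 14 of 46 cases, 30.4%, against 10.0% of eligible models, and a median of 2 exons against 5. They lay on contigs, as distinct from scaffolds, in 9 cases, 19.6% against 8.06%. They began at base 1 of their sequence in 12 cases, 26.1% against 8.37%, and were the only model on it in 13 cases, 28.3% against 13.3%. A model that begins at base 1 reaches the end of the assembled sequence, so whether it is complete is not known. The strand was near even, with 25 members on the minus strand. The exon length was 437 to 14922 bases with a median of 1931, against a median of 2200.5 for eligible models.

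The members were scattered over 40 contigs and scaffolds, and no member lay within 50 kb of another. The closest pair, APZ42_022753 and APZ42_022867 on scaffold01361, was 370185 bases apart. The model next to a member on either side was eligible in 39 cases, over 27 members. Of these, 18 had their highest mean at day 17, 46.2% against 35.1% of eligible models, and their median score was -0.04 against -0.15. A score above 0.5 was found in 1 neighbour, APZ42_027470, which runs on the minus strand of scaffold02190 from base 1995238 to 1997986 and overlaps APZ42_027481 on the plus strand, from base 1997504 to 2012425. Of the neighbours, 7 overlapped a member, and since the counting is not stated to use strand, reads of such pairs cannot be told apart.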

How the data were processed

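RNA of 84 single whole animals was sequenced after ribosomal RNA depletion, per the labels' protocols. The submitters' processing notes list STAR 2.7.5b, a read aligner. How reads were counted, whether by strand, and on which build and gene set is not given in the sources used here. Raw, unnormalized counts per gene model were deposited, with exon coordinates per the file headers. The reference gene table held 0 of the IDs. No sequences are printed, because none of the files used here pairs these IDs with one.

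CPM, ranges and correlations were computed in Python 3.11.15 with pandas 2.3.3 and numpy 2.4.6. Counts of 81 libraries, without the 40 models set aside, were tested in R 4.3.3 with edgeR 4.0.16: filterByExpr at a minimum count of 10, TMM scaling, 1 mean for each of 27 groups (54 residual degrees of freedom), the robust quasi-likelihood F test, and Benjamini-Hochberg adjustment over 12624 models with a threshold of 0.05. Log2 changes are fitted contrasts with standard errors (SE). The slope used the rank of the concentration. Alternatives were DESeq2 1.42.0 (not for joint tests), limma-voom (limma 3.58.1), the older edgeR fit, other scaling, filters and sets of libraries, and leaving out each library in turn. Replicate numbers follow accession order and pair no animals.

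The members, the comparisons and the alternatives were chosen with earlier results of these data known. Models named are the 12 with the highest scores, those next to the limits, the 2 most alike and the 2 least correlated, and in each test of concentration up to 4 called members with the smallest p, or the 2 with the smallest p where none was called. Others were named after their values were seen.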

Additional observations from a re-analysis of the deposited data

Results flagged for a closer look

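APZ42_020464, on scaffold00996 from base 392301 to 399415, differed in opposite directions between 4 nM Hg/L and concentration 0 at days 10 and 6. At day 10 its 3 animals had 4.28, 7.67 and 8.29 CPM at 4 nM Hg/L, with a mean of 6.75 CPM, against 2.81, 2.34 and 0 CPM at concentration 0, so every animal at 4 nM Hg/L was higher. At day 6 they had 0, 0 and 1.65 CPM at 4 nM Hg/L against 3.39, 4.09 and 6.00 CPM at concentration 0, so every animal at 4 nM Hg/L was lower. Few reads stand behind these levels. At day 10 the counts were 5, 3 and 6 at 4 nM Hg/L against 3, 4 and 0 at concentration 0, so the counts themselves overlapped. At day 6 they were 0, 0 and 2 against 4, 5 and 9. The difference between the days was not tested. The 2 animals without a count at day 6 are among the shallow libraries, with 254617 and 120113 counts, and the part of depth was not tested.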

How the results depend on the processing

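Of the 46 members, 9 were chosen again with a pseudocount of 4, 25 with TMM scaling, 1 with no models set aside (when 2 reached 5 CPM), 21 with day medians and 11 without the 7 shallow libraries, an alternative chosen after seeing the data. Leaving out each day 17 library in turn kept 38 to 46. For models called among any concentration, limma-voom gave 2942 at day 17, 1607 at day 6 and 2841 at day 10, with 15, 4 and 8 members. The older edgeR fit gave 558 at day 17, 290 at day 6 (1 member) and 938 at day 24 (1 member). No filter gave 906 at day 24 (1 member). Without the shallow libraries there were 0 members at day 17, 1.3e+02 models and 1 member at day 6, 1814 models at day 10, and 215 models and 0 members at day 24, where the group at 0.12 nM Hg/L then had no animal and the test covered the other 5 concentrations. For the lower concentrations against 0 at day 17, in place of 7 models, DESeq2 size factors gave 4, no filter 2, DESeq2 232, limma-voom 94 (1 member), the older fit 1, all 84 libraries 3 and day 17 libraries only 55. For 4 nM Hg/L against 0 at day 17, DESeq2 gave 7, day 17 libraries only 1, and the set without shallow libraries 1. For the averaged slope, no filter gave 212, DESeq2 1123 (1 member), limma-voom 1183 (2 members), all 84 libraries 332 and the set without shallow libraries 396. DESeq2 gave 15 for the day 17 slope, 11 for the slope difference and 10 for day 17 minus day 10, where limma-voom gave 2. The cause of these shifts was not tested.

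Leaving out each library in turn, the joint test called 642 to 1082 models at day 17 (0 to 2 members), 273 to 721 at day 6 (1 to 2), 254 to 1503 at day 10 (0 to 6) and 854 to 2005 at day 24 (1 to 6). The lower concentrations gave 0 to 11 models, the averaged slope 73 to 1228 (0 to 6 members), the slope difference 0 to 1 and day 17 minus day 10 0 to 1. APZ42_024043, with a log2 change of 1.03 at 0.12 nM Hg/L against 0 at day 17, reversed to -1.22 without replicate 2 at 0.12 nM Hg/L and had 1.63 at most. No paired analysis was possible because the replicate numbers are only accession order.

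Most members had under 20 counts in the median day 17 animal, and the size of change that this depth can show was not tested. Counting error, and the sharing of reads between overlapping or near-identical models, could not be separated from differences between animals.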
